A study of Mus musculus with 8 samples.

Results

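The genes described here are the oxygen-sensing core of the hypoxia-inducible factor (HIF) pathway. Among them are the HIF alpha subunits Hif1a and Epas1 and the prolyl hydroxylases Egln1, Egln2 and Egln3. The others are the asparaginyl hydroxylase Hif1an and the VHL substrate receptor Vhl. All 7 were chosen by name, with earlier results of these data known. They are 7 of the 18846 genes with a value, and all 7 were among the 15361 genes that passed the filter on low counts. All were measured as mRNA. The proteins, on which oxygen acts in this pathway, were not.

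HIF alpha subunits are made continuously and destroyed continuously. When oxygen is present, the EGLN enzymes hydroxylate prolines of the alpha subunit, VHL binds the hydroxylated protein as the receptor of a ubiquitin ligase, and the proteasome removes it, while HIF1AN hydroxylates an asparagine that the coactivators p300 and CBP would otherwise contact. When oxygen falls, the alpha subunit pairs with ARNT and switches on genes of glycolysis, vessel growth and mitochondrial turnover, Egln3 among them. SIAH ubiquitin ligases are known to mark prolyl hydroxylases for degradation, which links the deleted gene of these mice to the pathway at the protein level. In the adrenal gland, EPAS1 is known from the catecholamine-producing chromaffin cells and from endothelium, and changes in VHL and EPAS1 are known from chromaffin cell tumours of people.

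The samples were adrenal glands of 129SVEV mice, all of them from 1 strain label and 1 tissue label. The Siah1a-/- animals given ACTH (adrenocorticotropic hormone, the pituitary hormone that drives cortical steroid synthesis) and the wild-type animals given ACTH received 100 µg/kg into the peritoneum 1 hour before harvest. The other Siah1a-/- and wild-type animals were untreated. The labels name no vehicle injection, so the hormone cannot be told apart from the injection itself, and they give no age and no description of the Siah1a allele. Each of the 4 groups held 2 libraries, 1 labelled male and 1 labelled female, with 8020111 to 29568950 estimated counts per library. Nothing in the labels says more about how the 2 animals of a group are related, so p-values measure the spread between these libraries.

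The 7 cortical markers summed to 26955 to 51212 CPM (counts scaled to the size of each library, with TMM factors) in every library, as the tissue label has it, and 2 wild-type libraries stood apart. The untreated wild-type library labelled male held 1845 CPM of the 6 kidney markers, against 0.285 to 7.88 CPM in the other 7 libraries. It also held 388 CPM of Xist and 3.06 CPM summed over 4 Y-linked genes, which goes against its label. Among the wild-type libraries of the ACTH arm, the one labelled female held 61346 CPM of the 6 liver markers, against 184 to 1164 CPM in the others. Siah1a itself was 18.99 and 17.4 CPM in ACTH-treated and 25.2 and 21.2 CPM in untreated Siah1a-/- glands, and 33.1 and 32.4 CPM in ACTH-treated and 26.3 and 26.1 CPM in untreated wild-type glands. All 4 knockout libraries were below all 4 wild-type libraries, as for 4.71% of all genes tested. The log2 difference of -0.52 (SE 0.23) did not pass (edgeR adjusted p = 0.383). Siah1a has a near-identical copy, Siah1b, and how reads that match both were counted was not given in the sources used here. Below, paired values give the library labelled male before the one labelled female.

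None of the 7 genes passed at an adjusted p under 0.05 in any of the 7 comparisons that the design allows (edgeR quasi-likelihood test, Benjamini-Hochberg over all 15361 genes). For Siah1a-/- against wild type, the share of all genes called was 0.026%, which is 4 genes. DESeq2 and limma-voom also called 0 of the 7. At an unadjusted p under 0.05, 2 of the 7 were lower in Siah1a-/- glands, Egln1 and Hif1a, where 8.11% of all genes were lower at that level, and 0 were higher, where 5.33% of all genes were. The median log2 difference of the 7 genes was -0.167, beside -0.044 over all genes tested. In bulk tissue, fewer cells of a type and less RNA per cell cannot be told apart.

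**Figure D1:**
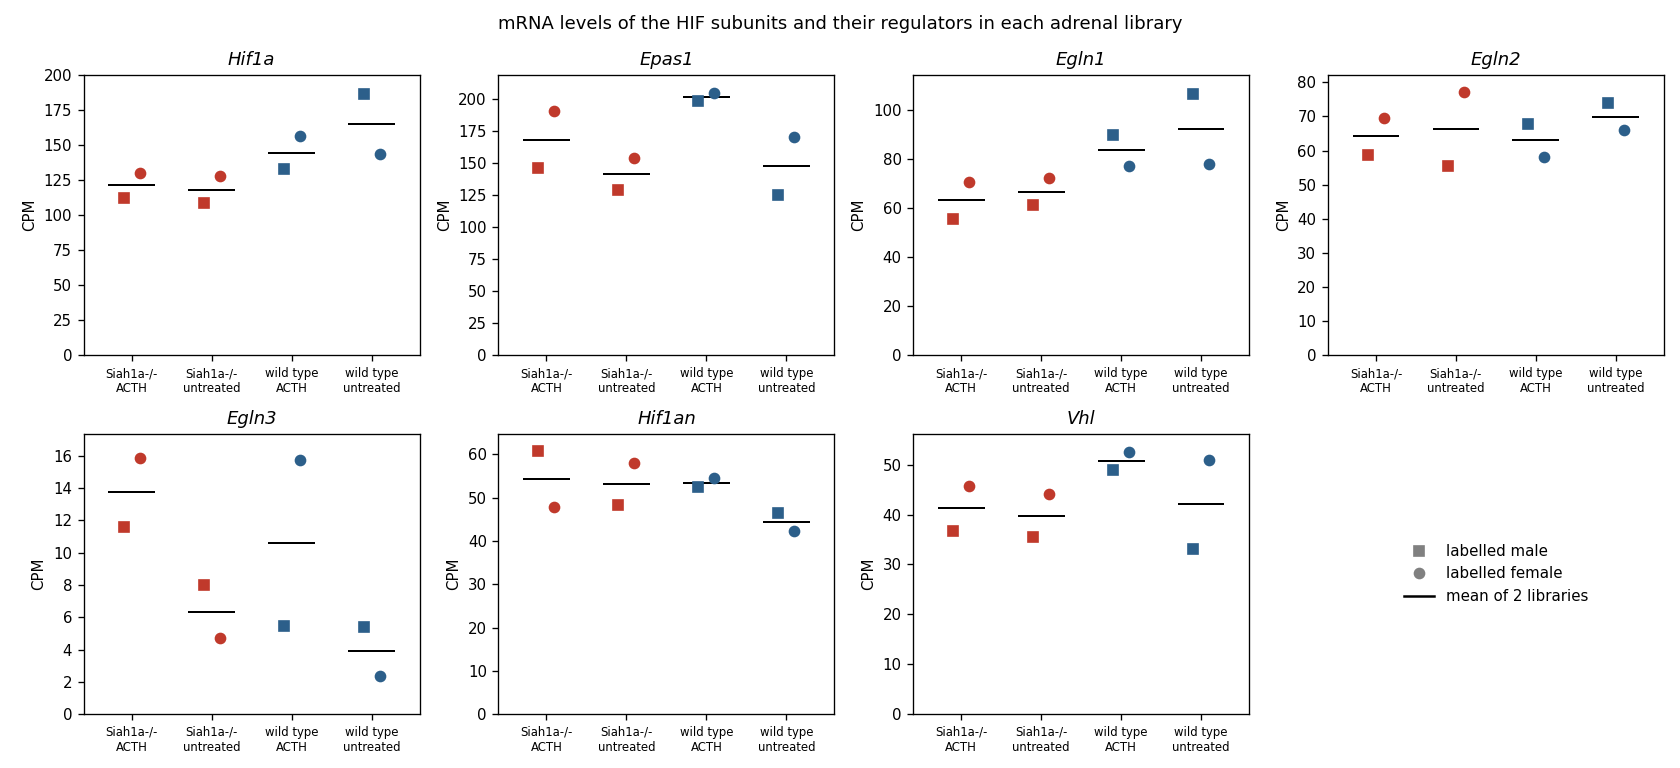
Level of each of the 7 genes in CPM (y axis, from 0) in the 8 adrenal libraries, by group (x axis); squares are libraries labelled male, circles libraries labelled female, red Siah1a-/-, blue wild type, and bars the mean of 2 libraries. All 4 Siah1a-/- libraries sit below all 4 wild-type libraries for Hif1a (at most 130 against at least 133 CPM) and Egln1 (at most 72.1 against at least 77.2 CPM), and the groups overlap for the other genes. Of all genes tested, 4.71% lay wholly below wild type in this way. In RPKM the genotypes overlap for Egln1.

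Per length, 3 of the genes stood close together at the top. Mean RPKM (reads scaled to transcript length and library size, the authors' values summed per gene) over the 8 libraries was 26.5 for Egln2, 25.9 for Epas1 and 25.5 for Hif1a. Egln2 was above Epas1 in 4 of 8 libraries and Epas1 above Hif1a in 6 of 8, so the order of these 3 was not the same in every library. Below them came Egln1 at 18.4, Vhl at 13.4, Hif1an at 6.99 and Egln3 at 2.68 RPKM, and each of these was below its upper neighbour in 8 of 8 libraries. The ratio of Epas1 to Hif1a RPKM was 1.1 and 1.25 in ACTH-treated and 0.987 and 1.01 in untreated Siah1a-/- glands, and 1.26 and 1.11 in ACTH-treated and 0.588 and 1 in untreated wild-type glands. The lowest ratio came from the library with kidney transcripts.

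Of the 7 genes, 6 varied less than the median gene. The coefficient of variation of CPM over the 8 libraries was 11.9% for Egln2, 12.1% for Hif1an, 17.1% for Vhl, 18.4% for Hif1a, 18.8% for Epas1 and 20.9% for Egln1, against a median of 35% over all genes tested. For Egln2, 4.21% of the tested genes varied less, and for Hif1an 4.58%. Egln3 was the exception at 59.8%, above 70% of the tested genes. It is also the gene with the fewest reads, 43 to 412 per library, and counting alone gives a relative error of 15.2% at the lowest of these.

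Hif1a, the more widely expressed alpha subunit, was lower in the knockout glands in all 4 pairs matched for treatment and labelled sex. It had 112 and 130 CPM in ACTH-treated and 108 and 128 CPM in untreated Siah1a-/- glands, and 133 and 156 CPM in ACTH-treated and 187 and 144 CPM in untreated wild-type glands. The 2 genotypes did not overlap, in CPM or in RPKM (at most 24.5 in Siah1a-/- and at least 25.1 in wild-type libraries). Of all genes tested, 4.71% lay wholly below wild type in this way. Hif1a averaged 120 ± 11 CPM in Siah1a-/- and 155 ± 23.2 CPM in wild-type glands (SD, n = 4 each), a log2 difference of -0.37 (SE 0.16, 95% interval -0.73 to -0.01). It did not pass (edgeR adjusted p = 0.358). The highest level, 187 CPM, was in the library that holds kidney transcripts, and without that library the log2 difference was -0.23 (edgeR adjusted p = 0.617). Without both wild-type libraries that stood apart it was -0.22 (edgeR adjusted p = 0.892). By treatment, the fitted difference was -0.25 (SE 0.23) after ACTH and -0.49 (SE 0.23) in untreated glands, and the interaction was 0.24 (SE 0.33, adjusted p = 1, edgeR).

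Epas1, the alpha subunit of chromaffin cells and endothelium, had its larger fitted difference between treatments. It had 146 and 190 CPM in ACTH-treated and 129 and 153 CPM in untreated Siah1a-/- glands, and 198 and 204 CPM in ACTH-treated and 125 and 170 CPM in untreated wild-type glands. In each of the 4 pairs of the same genotype and labelled sex the ACTH-treated gland was higher, while the 4 treated and the 4 untreated levels overlapped. The means were 184 ± 26.5 CPM after ACTH and 144 ± 21.3 CPM untreated (SD, n = 4 each), a log2 difference of 0.35 (SE 0.13, 95% interval 0.04 to 0.66). This did not pass (edgeR adjusted p = 0.742), and without both wild-type libraries that stood apart it was 0.32 (edgeR adjusted p = 0.944). Between genotypes Epas1 averaged 154 ± 26 CPM in Siah1a-/- and 174 ± 35.9 CPM in wild-type glands, with a log2 difference of -0.17 (SE 0.13, edgeR adjusted p = 0.643).

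Markers of the cells that EPAS1 is known from were measured beside it. The 10 chromaffin markers, none at 0, summed to 6955 and 1927 CPM in ACTH-treated and 7807 and 6358 CPM in untreated Siah1a-/- glands, and to 4281 and 2643 CPM in ACTH-treated and 2128 and 2967 CPM in untreated wild-type glands. That is a range of 1927 to 7807 CPM in Siah1a-/- and 2128 to 4281 CPM in wild-type glands. The 10 endothelial markers, also none at 0, summed to 552 to 890 CPM after ACTH and to 512 to 660 CPM in untreated glands. The part of either cell type in the Epas1 levels was not tested. No marker of the chromaffin or endothelial list passed in either comparison at an adjusted p under 0.05 (edgeR). At an unadjusted p under 0.05, 4 of the 10 chromaffin markers were higher in Siah1a-/- glands (Ddc, Pnmt, Chga and Slc18a2) and 0 lower. Of the 10 endothelial markers, 1 was higher (Cldn5) and 0 lower. Over all genes tested, 5.33% were higher and 8.11% lower at that level. Between treatments, 1 of the 10 endothelial markers was higher after ACTH at that level (Egfl7) and 0 lower. Of the 10 chromaffin markers 0 were higher and 0 lower, where 3.49% and 2.62% of all genes were. Fitted levels after ACTH were higher for 9 endothelial markers and lower for 1, and higher for 5 chromaffin markers and lower for 5. These markers were named after their values were seen.

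Hif1a is the only one of the 7 genes listed with more than 1 transcript. Its 3 transcripts use 2 start sites on chromosome 12 of mm10, at 73901375 and 73907904, which lie 6529 bases apart on the plus strand. The transcript from the upstream start was assigned most of the estimated Hif1a counts in 7 of the 8 libraries. Its share of the estimated counts was 66.7% and 60% in ACTH-treated and 94.8% and 79.9% in untreated Siah1a-/- glands, and 69.2% and 66.6% in ACTH-treated and 23.6% and 76% in untreated wild-type glands. The 4 ACTH-treated libraries lay within a narrow band, and both extremes were untreated glands. The share averaged 75.3% ± 15.4 in Siah1a-/- and 58.8% ± 23.8 in wild-type glands (SD, n = 4 each; exact permutation test, two-sided, p = 0.343, adjusted p = 0.686 over 2 comparisons). It averaged 65.6% ± 3.92 after ACTH and 68.5% ± 31.1 in untreated glands (n = 4 each; exact permutation p = 0.886, adjusted p = 0.886). The smallest p that 4 libraries against 4 can give is 0.0286. The share of 23.6% was in the library with kidney transcripts, and without it the difference between ACTH-treated and untreated glands was -17.9 percentage points (exact permutation p = 0.0571, the smallest that 4 against 3 can give). How the authors divided reads between transcripts that share most of their exons was not given in the sources used here. Exons of Hif1a also overlap those of Gm49321 on the same strand and of Gm15283 on the opposite strand. Neither of these is among the genes with a value.

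**Figure D2:**
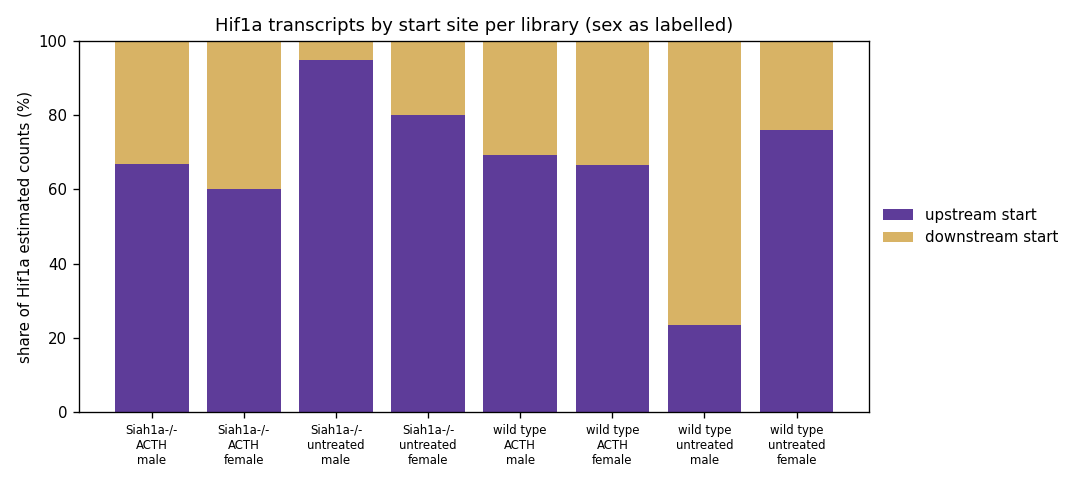
Share of Hif1a estimated counts (y axis, percent) assigned to the transcript with the upstream start (purple) and to the 2 transcripts with the downstream start (tan) in each of the 8 libraries (x axis, sex as labelled). The upstream start holds 60% to 94.8% except in the untreated wild-type library labelled male, where it holds 23.6%.

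The promoter of the downstream start is shown because HIF itself binds a short core, ACGTG or GCGTG. The transcripts from this start were assigned the smaller share of the estimated Hif1a counts in 7 of the 8 libraries. The RefSeq promoter table (GRCm38.p6, 250 bases before to 50 after the start) had an entry for this start of Hif1a and none for the upstream one. The sequence runs 5′ to 3′ on the plus strand at chr12:73907617-73907916, with HIF cores on either strand in capitals.
Hif1a downstream start: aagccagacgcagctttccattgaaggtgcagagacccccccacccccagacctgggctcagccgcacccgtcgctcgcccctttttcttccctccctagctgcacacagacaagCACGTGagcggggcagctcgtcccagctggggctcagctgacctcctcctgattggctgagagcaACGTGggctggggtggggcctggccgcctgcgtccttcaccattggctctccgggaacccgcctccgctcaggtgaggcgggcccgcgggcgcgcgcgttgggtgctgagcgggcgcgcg
It held 3 matches to ACGTG, of which 2 are the overlapping strands of 1 palindrome (first bases at -135 and -134 from the start) and 1 lies at -70. Of the 32851 promoters listed, 19.6% held ACGTG on either strand, 32.4% held GCGTG and 43.8% at least 1 of them. A match describes the letters and is not evidence of binding.

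The prolyl hydroxylases are the oxygen sensors of the pathway, and none of the 3 mRNAs passed in any comparison. Egln1, known as the main hydroxylase of HIF alpha in normal oxygen, had 55.7 and 70.7 CPM in ACTH-treated and 61.2 and 72.2 CPM in untreated Siah1a-/- glands, and 89.8 and 77.2 CPM in ACTH-treated and 106 and 78.1 CPM in untreated wild-type glands. Each knockout library was below its wild-type partner in 4 of 4 pairs. The genotypes did not overlap on this scale, where 4.71% of all genes lay wholly below wild type. In RPKM, to which no TMM factor was applied here, they did, with at most 17.6 in Siah1a-/- and at least 16.8 in wild-type libraries. The means were 64.9 ± 7.85 CPM in Siah1a-/- and 87.8 ± 13.5 CPM in wild-type glands (SD, n = 4 each), a log2 difference of -0.43 (SE 0.17, 95% interval -0.83 to -0.03). It did not pass (edgeR adjusted p = 0.338), and without both wild-type libraries that stood apart it was -0.38 (edgeR adjusted p = 0.799). The fitted difference was -0.40 (SE 0.27) after ACTH and -0.46 (SE 0.27) in untreated glands, with an interaction of 0.06 (SE 0.38). Between treatments Egln1 had a log2 difference of -0.11 (SE 0.17, edgeR adjusted p = 0.955). ACTH-treated glands were lower in 4 of 4 pairs, while the treated and untreated levels overlapped.

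Egln2, a hydroxylase that is not known as a HIF target, had 58.7 and 69.6 CPM in ACTH-treated and 55.4 and 77.2 CPM in untreated Siah1a-/- glands, and 67.8 and 58.3 CPM in ACTH-treated and 74.0 and 66.0 CPM in untreated wild-type glands. It was higher in the knockout in 2 pairs and lower in 2. The means of 65.2 ± 10 CPM in Siah1a-/- and 66.5 ± 6.47 CPM in wild-type glands gave a log2 difference of -0.03 (SE 0.17, 95% interval -0.43 to 0.36, edgeR adjusted p = 0.958), whose sign turned when any of 3 single libraries was left out. The exons of Egln2 overlap those of Cyp2t4 on the opposite strand, and the handling of strand in the counting was not given in the sources used here.

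Egln3, the hydroxylase that HIF itself induces, was the most variable. It had 11.6 and 15.9 CPM in ACTH-treated and 7.97 and 4.71 CPM in untreated Siah1a-/- glands, and 5.47 and 15.7 CPM in ACTH-treated and 5.41 and 2.35 CPM in untreated wild-type glands. ACTH-treated glands were higher in all 4 pairs, by little in the wild-type pair labelled male, and the treated and untreated levels overlapped. Egln3 averaged 12.2 ± 4.88 CPM after ACTH and 5.11 ± 2.31 CPM untreated (SD, n = 4 each), a log2 difference of 1.28 (SE 0.56, 95% interval -0.02 to 2.57, edgeR adjusted p = 0.806). The fitted difference was 1.11 (SE 0.82) in Siah1a-/- and 1.46 (SE 0.86) in wild-type glands. One of the highest values, 15.7 CPM, is from the library that holds liver transcripts, and without both wild-type libraries that stood apart the log2 difference was 1.12 (edgeR adjusted p = 0.923). Between genotypes Egln3 averaged 10 ± 4.79 CPM in Siah1a-/- and 7.24 ± 5.85 CPM in wild-type glands, higher in the knockout in 4 of 4 pairs, with a log2 difference of 0.54 (SE 0.53, 95% interval -0.68 to 1.77, edgeR adjusted p = 0.711). Without both of those libraries it was 1.37 (edgeR adjusted p = 0.651), and without the male-labelled wild-type library given ACTH it was 0.281, the lowest of 19 alternatives.

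**Figure D3:**
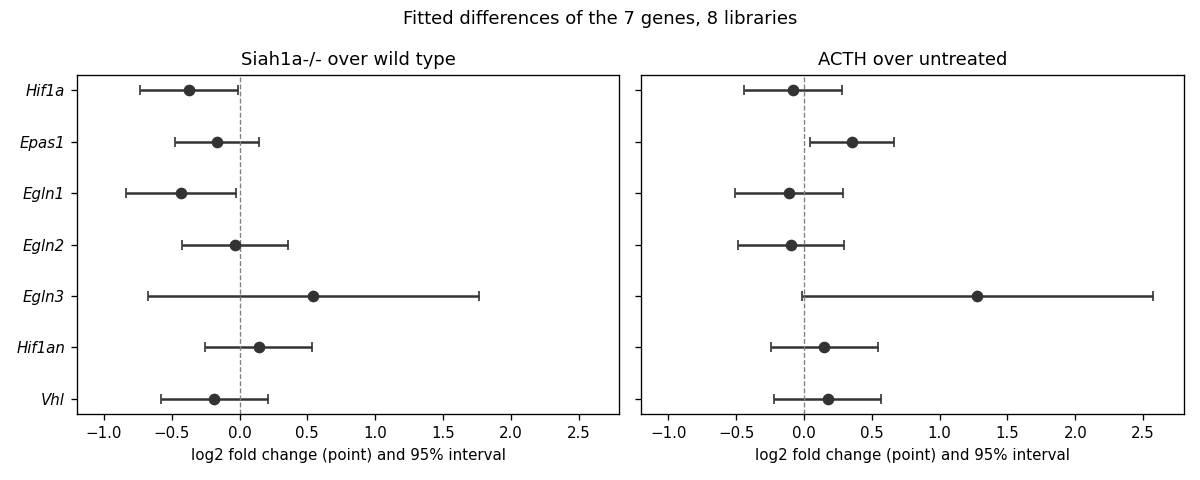
Fitted log2 fold change (points) with its 95% interval (bars) for the 7 genes, Siah1a-/- over wild type on the left and ACTH over untreated on the right. The intervals of Egln1 (-0.83 to -0.03) and Hif1a (-0.73 to -0.01) lie below 0 on the left and that of Epas1 (0.04 to 0.66) above 0 on the right, and none of the 7 genes passed after adjustment.

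The make-up of prolyl hydroxylase mRNA is a description that reuses the levels above and carries no test. Egln1 made up 32.9% to 37.2% of the summed RPKM of the 3 genes in Siah1a-/- libraries and 39.5% to 44.8% in wild-type libraries. Egln2 made up 56% to 62.2% in Siah1a-/- and 49.9% to 57.6% in wild-type libraries. Egln3 stayed the smallest share in all 8, at 3.42% to 10.6% after ACTH and 1.62% to 6.39% in untreated glands.

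**Figure D4:**
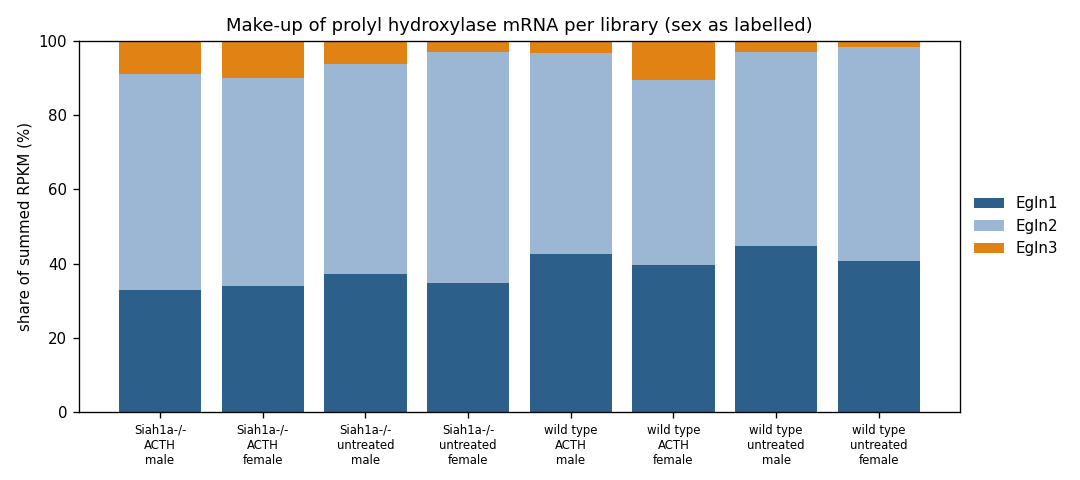
Share of Egln1 (dark blue), Egln2 (light blue) and Egln3 (orange) in the summed RPKM of the 3 prolyl hydroxylase genes (y axis, percent) in each of the 8 libraries (x axis, sex as labelled). Egln1 holds 32.9% to 37.2% in the 4 Siah1a-/- libraries and 39.5% to 44.8% in the 4 wild-type libraries, and Egln3 at most 10.6% in any.

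The promoters of the 3 hydroxylase genes are shown since Egln1 and Egln3 are known targets of HIF and their fitted differences between genotypes had opposite signs here, neither of them past the threshold. They are from the same RefSeq table, lie on the minus strand and run 5′ to 3′ in the direction of the gene. HIF cores (ACGTG or GCGTG, either strand) are in capitals. Egln1 is at chr8:124949205-124949504, the first of 2 entries for Egln2 at chr7:27166753-27167052 and Egln3 at chr12:54203825-54204124.
Egln1: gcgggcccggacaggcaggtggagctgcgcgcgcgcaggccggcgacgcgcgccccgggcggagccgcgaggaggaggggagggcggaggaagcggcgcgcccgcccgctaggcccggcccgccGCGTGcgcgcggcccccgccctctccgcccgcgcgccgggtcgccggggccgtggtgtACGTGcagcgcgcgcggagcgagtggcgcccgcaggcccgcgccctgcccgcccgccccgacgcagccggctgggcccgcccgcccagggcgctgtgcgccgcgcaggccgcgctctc
Egln2: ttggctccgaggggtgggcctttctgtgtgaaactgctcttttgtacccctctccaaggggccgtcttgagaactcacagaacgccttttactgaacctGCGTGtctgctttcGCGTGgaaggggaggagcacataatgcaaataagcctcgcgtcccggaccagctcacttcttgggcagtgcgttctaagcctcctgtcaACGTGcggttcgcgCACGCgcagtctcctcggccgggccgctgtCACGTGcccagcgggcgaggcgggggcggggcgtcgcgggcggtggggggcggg
Egln3: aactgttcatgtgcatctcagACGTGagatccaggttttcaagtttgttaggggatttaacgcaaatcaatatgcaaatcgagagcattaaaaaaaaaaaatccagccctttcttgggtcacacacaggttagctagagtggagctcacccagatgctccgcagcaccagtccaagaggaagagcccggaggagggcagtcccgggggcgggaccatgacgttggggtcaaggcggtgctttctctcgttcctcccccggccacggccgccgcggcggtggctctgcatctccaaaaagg
The Egln1 window held 1 ACGTG at -68 and 1 GCGTG at -126. The Egln2 window held 3 of each, with 2 of the ACGTG matches being the overlapping strands of a palindrome at -4 and -3. The Egln3 window held 1 ACGTG at -229 and no GCGTG. The entries for Vhl and Hif1an held neither core, and Epas1 was named in no entry. At least 1 core was thus present in 4 of the 6 genes with an entry, beside 43.8% of all promoters.

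Vhl, the receptor that binds hydroxylated HIF alpha, had 36.8 and 45.7 CPM in ACTH-treated and 35.5 and 44.0 CPM in untreated Siah1a-/- glands, and 48.8 and 52.6 CPM in ACTH-treated and 33.2 and 51.0 CPM in untreated wild-type glands. The lowest value was in the library with kidney transcripts. Averages were 40.5 ± 5.11 CPM in Siah1a-/- and 46.4 ± 8.95 CPM in wild-type glands (SD, n = 4 each), with a log2 difference of -0.19 (SE 0.17, 95% interval -0.58 to 0.21, edgeR adjusted p = 0.691). ACTH-treated glands were higher in 4 of 4 pairs, by a fitted log2 difference of 0.17 (SE 0.17, edgeR adjusted p = 0.929).

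Hif1an, the asparaginyl hydroxylase that keeps p300 and CBP off the alpha subunit, had 60.8 and 47.9 CPM in ACTH-treated and 48.2 and 57.9 CPM in untreated Siah1a-/- glands, and 52.4 and 54.5 CPM in ACTH-treated and 46.5 and 42.3 CPM in untreated wild-type glands. The genotypes overlapped. The log2 difference was 0.14 (SE 0.17, 95% interval -0.25 to 0.53, edgeR adjusted p = 0.773) between genotypes and 0.15 (SE 0.17, edgeR adjusted p = 0.935) between treatments. Over 19 alternatives each, these differences ran from 0.0246 to 0.234 between genotypes, lowest without the untreated Siah1a-/- library labelled female, and from 0.0553 to 0.264 between treatments.

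For ACTH against untreated as a whole, 0 of the 7 genes were called by edgeR, DESeq2 or limma-voom, where edgeR called 0.0195% of all genes, and 1 of the 7, Epas1, was higher at an unadjusted p under 0.05, where 3.49% of all genes were, and 0 were lower, where 2.62% were. None of the 7 had all 4 treated libraries above or below all 4 untreated ones, against 3.89% of all genes. The interaction of genotype and treatment called 0 of the 7 and 0% of all genes (edgeR), with 0 of the 7 at an unadjusted p under 0.05, where 1.84% of all genes were. DESeq2 called 8 genes for the interaction, none of them among the 7. Within the ACTH-treated glands 0 of the 7 differed by genotype at an adjusted p under 0.05, where edgeR called 0.00651% of all genes, and 0 at an unadjusted p under 0.05, where 8.23% did. Within the untreated glands these counts were also 0 of 7, beside 0% and 4.84% of all genes. For ACTH against untreated they were 0 of 7 within Siah1a-/- glands, beside 0% and 4.22%, and 0 of 7 within wild-type glands, beside 0% and 2.56%. The fitted interactions of the 7 genes lay between -0.34 (Egln3, SE 1.14) and 0.24 (Hif1a, SE 0.33) on the log2 scale, so the intervals allow sizeable differences for Egln3 in particular.

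The proteins that HIF alpha and VHL work with were taken as a list of 10 genes, and none passed by edgeR between genotypes. At an unadjusted p under 0.05, 2 were higher, Cited2 and Tceb2, and 0 lower, where 5.33% and 8.11% of all genes were. The median log2 difference of the 10 was 0.187. Cited2, which competes with HIF alpha for p300 and CBP and is itself a known HIF target, had 315 and 193 CPM in ACTH-treated and 229 and 157 CPM in untreated Siah1a-/- glands, and 107 and 103 CPM in ACTH-treated and 81.0 and 103 CPM in untreated wild-type glands. All 4 knockout libraries were above all 4 wild-type libraries, as for 4.21% of all genes tested. The means were 224 ± 67.6 CPM in Siah1a-/- and 98.5 ± 11.8 CPM in wild-type glands (SD, n = 4 each), a log2 difference of 1.14 (SE 0.20, 95% interval 0.69 to 1.59), which missed the threshold in edgeR (adjusted p = 0.0997). It passed in DESeq2 (adjusted p = 1.11e-05) and limma-voom (adjusted p = 0.0388). Without both wild-type libraries that stood apart the log2 difference was 1.03 (edgeR adjusted p = 0.284). Tceb2, the elongin B subunit of the VHL ligase, had a log2 difference of 0.32 (SE 0.12, edgeR adjusted p = 0.314), and Tceb1, the elongin C subunit, one of 0.26 (SE 0.17, edgeR adjusted p = 0.562). After ACTH, Tceb2 differed by -0.29 (SE 0.12, edgeR adjusted p = 0.787) and the ligase scaffold Cul2 by 0.29 (SE 0.13, edgeR adjusted p = 0.806).

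Of 25 well-known HIF target genes, all tested, none passed by edgeR between genotypes. At an unadjusted p under 0.05, 2 were higher and 5 lower, where 5.33% and 8.11% of all genes were. The median log2 difference was -0.0401 beside -0.044 over all genes. The 2 higher were Ddit4, an inhibitor of the growth kinase mTORC1, and Bnip3l, a mitophagy receptor. Ddit4 had 111 and 70.3 CPM in ACTH-treated and 95.1 and 96.8 CPM in untreated Siah1a-/- glands, and 59.0 and 50.2 CPM in ACTH-treated and 45.8 and 46.5 CPM in untreated wild-type glands, without overlap. Its log2 difference was 0.89 (SE 0.18, edgeR adjusted p = 0.123). Bnip3l had one of 0.42 (SE 0.14, edgeR adjusted p = 0.258), also without overlap. Of all genes tested, 4.21% lay wholly above wild type in this way. The 5 lower were the glycolytic genes Eno1, Ldha and Hk2, Pdk1, which holds pyruvate back from mitochondria, and the repressor Bhlhe40. Eno1 had 71.7 and 69.8 CPM in ACTH-treated and 64.1 and 38.0 CPM in untreated Siah1a-/- glands, and 125 and 93.8 CPM in ACTH-treated and 101 and 101 CPM in untreated wild-type glands. Its genotypes did not overlap either, with a log2 difference of -0.82 (SE 0.18, edgeR adjusted p = 0.146). Wholly below wild type lay 4.71% of all genes tested. Ddit4 and Eno1 were named because their unadjusted p were the 2 smallest of the list. The other targets in this paragraph were named after their values were seen.

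For the other lower targets, single libraries and another tissue's marker are given beside the values. Ldha had a log2 difference of -1.25 (SE 0.40, edgeR adjusted p = 0.241), with its highest level, 898 CPM, in the library that holds liver transcripts, and -0.51 (edgeR adjusted p = 0.815) without both wild-type libraries that stood apart. Hk2 had 30.9 and 125 CPM in ACTH-treated and 39.8 and 41.7 CPM in untreated Siah1a-/- glands, and 132 and 112 CPM in ACTH-treated and 98.8 and 86.3 CPM in untreated wild-type glands (log2 difference -0.996, SE 0.37, edgeR adjusted p = 0.301). Ucp1, the marker of brown fat, had 27.3 and 887 CPM in ACTH-treated and 33.8 and 81.3 CPM in untreated Siah1a-/- glands, and 655 and 578 CPM in ACTH-treated and 947 and 310 CPM in untreated wild-type glands. The same 3 libraries were the lowest in Hk2 and in Ucp1. Ucp1 is 1 of 7 adipocyte markers, of which 2 had a higher and 5 a lower fitted level in Siah1a-/- glands. None of the 7 passed (edgeR). The 7, none at 0 in every library, summed to 1954 to 5047 CPM in Siah1a-/- and 1790 to 4252 CPM in wild-type glands. Their part in the Hk2 levels was not tested. Pdk1 had a log2 difference of -0.63 (SE 0.20, edgeR adjusted p = 0.243). Aldoa and Pgk1, the most abundant of the 25, differed by -0.12 (SE 0.17, edgeR adjusted p = 0.803) and -0.06 (SE 0.24, edgeR adjusted p = 0.939).

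**Figure D5:**
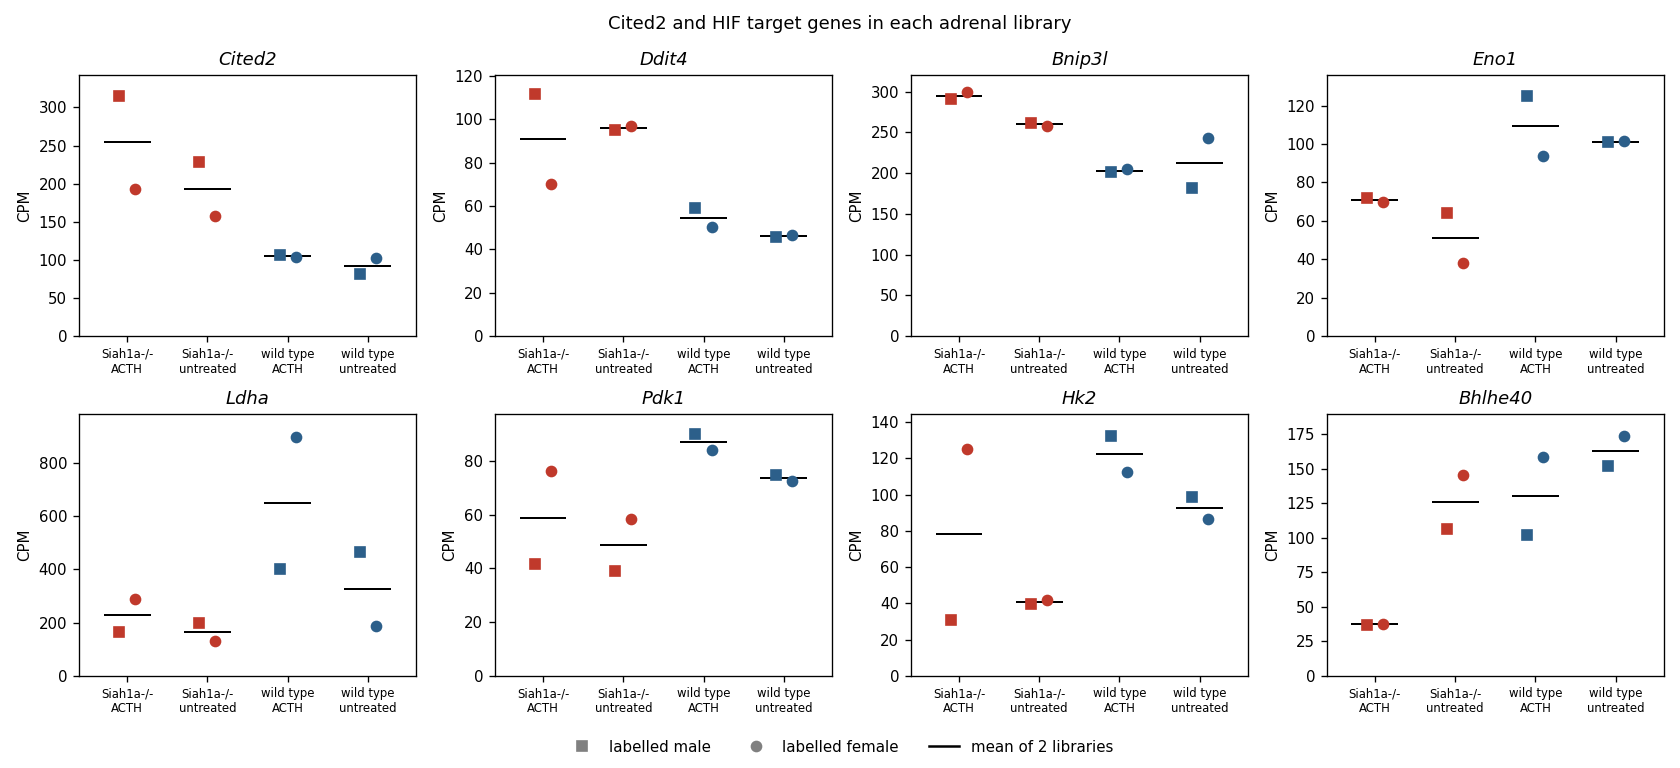
Level in CPM (y axis, from 0) of Cited2 and the 7 HIF target genes with an unadjusted p under 0.05 between genotypes, in the 8 libraries by group (x axis; squares labelled male, circles labelled female, red Siah1a-/-, blue wild type, bars the mean of 2 libraries). Cited2, Ddit4 and Bnip3l are higher in all 4 Siah1a-/- than in all 4 wild-type libraries and Eno1 is lower in all 4, and none passed in edgeR after adjustment. Of all genes tested, 4.21% lay wholly above and 4.71% wholly below wild type in this way.

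With ACTH, none of the 25 target genes passed in edgeR, and DESeq2 called 1. At an unadjusted p under 0.05, 1 was higher and 1 lower, where 3.49% and 2.62% of all genes were. The lower one, Bhlhe40, had 36.9 and 37.9 CPM in ACTH-treated and 107 and 146 CPM in untreated Siah1a-/- glands, and 102 and 159 CPM in ACTH-treated and 152 and 174 CPM in untreated wild-type glands, a log2 difference of -1.04 (SE 0.30, edgeR adjusted p = 0.719). It was also lower in the knockout (log2 difference -1.07, SE 0.30, edgeR adjusted p = 0.201), and the ACTH-treated Siah1a-/- pair stood well below the other 6 libraries. The higher one, Pfkfb3, an activator of glycolysis, had a log2 difference of 0.93 (SE 0.33, edgeR adjusted p = 0.727).

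Of 5 genes tied to acute oxygen sensing, 4 could be tested, since Higd1c was at 0 in all 8 libraries. None passed between genotypes. Pcx, the pyruvate carboxylase, was lower in all 4 knockout than in all 4 wild-type libraries, with 437 and 285 CPM in ACTH-treated and 375 and 359 CPM in untreated Siah1a-/- glands, and 643 and 607 CPM in ACTH-treated and 478 and 455 CPM in untreated wild-type glands (log2 difference -0.58, SE 0.17, edgeR adjusted p = 0.214). Such a separation was seen for 4.71% of all genes tested. Cox8b, a cytochrome oxidase subunit of muscle and brown fat, had a log2 difference of -1.13 (SE 0.76, edgeR adjusted p = 0.574). Among the SIAH ligases other than Siah1a, Siah2 differed by 0.59 (SE 0.65, edgeR adjusted p = 0.752) and Siah1b by -0.26 (SE 0.84, edgeR adjusted p = 0.928). Siah2 was lowest, at 1.41 CPM, in the library with kidney transcripts, and without that library its log2 difference between genotypes was 0.03 (edgeR adjusted p = 0.974). Between treatments Siah2 differed by 1.14 (SE 0.64, edgeR adjusted p = 0.848) and Siah1b by -0.14 (SE 0.83, edgeR adjusted p = 0.99). All 4 treated libraries were above all 4 untreated ones in Siah2, where 3.89% of all genes separated in either direction.

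Genes whose log2 CPM ran closely alike with each of the 7 over the 8 libraries were found among 10150 genes, as a description of libraries that share their scaling. For Hif1a these were Cdhr5 (Pearson r = 0.977, Spearman rho = 0.952) and Cryz (r = 0.975, rho = 0.929). For Epas1 they were Stim1 (r = 0.978, rho = 0.976) and Inf2 (r = 0.952, rho = 0.952). Egln1 ran with Oxnad1 (r = 0.965, rho = 0.976), Egln2 with Ndufb4 (r = 0.95, rho = 0.952) and Oxa1l (r = 0.944, rho = 0.905). Egln3 ran with Dnajb9 (r = 0.976, rho = 1) and Cdkn1a (r = 0.967, rho = 0.976). Vhl ran with Tfb2m (r = 0.984, rho = 0.905) and Abhd13 (r = 0.966, rho = 0.905), and Hif1an with Mir703 (r = 0.926, rho = 0.929) and Trmt5 (r = 0.91, rho = 0.905). None of the pairs given was between 2 of the 7 genes.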

How the data were processed

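RNA of 8 mouse adrenal glands was sequenced with a directional kit as single reads, per the labels' protocols. FastQC (0.11), TopHat2 (2.0.13), Bowtie2 (2.2.5.0), Partek (6.6) and mm10 are named in the submitters' processing notes. The authors deposited an estimated count and an RPKM value for each of 28678 RefSeq transcripts, per the file headers. How reads were shared between transcripts, and whether strand was used, was not given in the sources used here.

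The deposited estimated counts were summed per gene symbol and rounded to whole numbers. Genes were filtered with filterByExpr (minimum count 10) and TMM-scaled. Differences were tested with edgeR's quasi-likelihood test (edgeR 4.0.16, R 4.3.3) over all 8 libraries, with genotype, agent and labelled sex (4 residual degrees of freedom) or with their interaction of genotype and agent (3), and adjusted over all genes at 0.05. Each edgeR SE is the size of the log2 difference divided by the square root of the F statistic of its test. Intervals (95%) use this SE with the total degrees of freedom of the moderated test, not the residual ones alone. The deposited RPKM values were summed per gene for comparisons between genes and in limma (3.58.1) as log2(RPKM + 0.1) and log2(RPKM + 1). Alternatives were RLE or no scaling factors, no filter, DESeq2 (1.42.0), limma-voom, no sex term, an interaction in the averages, each library left out, both wild-type libraries that stood apart left out, and removal of genes whose level in 1 library was 8 or more times that in each of the rest. Counting error alone is covered by the counts' own relative errors. Shares of Hif1a transcripts were compared with an exact permutation test (scipy 1.17.1).

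The 7 genes and the lists beside them were chosen with earlier results of these data known. All 7 were named in every comparison. From each pathway list the rule took up to 4 genes that passed, or, where none did, the 2 with the highest mean CPM and the 2 with the smallest unadjusted p. For each of the 7 it also took the 2 genes most alike by Pearson r, among genes with a mean log2 CPM of at least 3. One gene that this rule named is not reported here. Exon overlaps were read from GENCODE M21 and promoters from the RefSeq table of GRCm38.p6.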

Additional observations from a re-analysis of the deposited data

How the results depend on the processing

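None of the 128 alternative values computed for the 7 genes' counts of calls differed from 0 called. Signs turned for differences near 0. Egln2 between genotypes ranged from -0.134 to 0.0691 on the log2 scale with 1 library left out. For ACTH against untreated, leaving out both wild-type libraries that stood apart gave 0.0644 for Egln1, 0.0748 for Egln2 and 0.0589 for Hif1a, and leaving out 1 library gave -0.20 to 0.0104 for Egln1 and -0.159 to 0.0692 for Hif1a. The Hif1a transcript share, ACTH minus untreated, ranged from -17.9 to 5.82 percentage points with 1 library left out. No other member changed sign.

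Between genotypes, DESeq2 called 1 of the partners (Cited2), 4 target genes (Ddit4, Eno1, Ldha and Bhlhe40) and 1 acute oxygen sensing gene (Pcx), where edgeR called 0 of each. limma-voom called 1 partner, and 0 to 1 were called with 1 library left out. With ACTH, DESeq2 called 1 target gene. The tools differed in the same way over all genes. Between genotypes edgeR called 4 genes, limma-voom 108 and DESeq2 947, edgeR without a filter 41, and edgeR 0 to 253 with 1 library left out, the most when the female-labelled library of the untreated wild type was dropped. Between treatments edgeR called 3 genes, DESeq2 123, edgeR without a filter 8, and 0 to 23 with 1 library left out. Between genotypes edgeR called 7 genes with library totals alone, 1 without the sex term, 3 without both wild-type libraries that stood apart and 0 without genes of 1 library, and limma on RPKM 7 or 1 by pseudocount. Between treatments, no sex term, both libraries out, genes of 1 library removed, RPKM or an interaction term gave 0. For the interaction DESeq2 called 8 and edgeR 0, or 2 without both wild-type libraries and 0 to 11 with 1 library left out. By genotype after ACTH DESeq2 called 501 genes, limma-voom 13 and edgeR 1, and edgeR 11 without a filter, 21 without both libraries and 0 to 173 with 1 left out. By genotype in untreated glands DESeq2 called 110 and edgeR 0, or 0 to 95 with 1 left out. By treatment in wild-type glands DESeq2 called 37, limma-voom 3 and edgeR 0, or 7 without a filter and 0 to 70 with 1 left out. The highest of these, 11, 173 and 70, came without the male-labelled wild-type library given ACTH, and 95 without the female-labelled untreated one. By treatment in Siah1a-/- glands DESeq2 called 98 and edgeR 0, or 2 without both libraries and 0 with 1 left out. The cause of these differences was not tested. Pathway genes were carried through the alternatives after their values were seen. No paired analysis was possible because the replicate numbers, assigned in accession order, pair no samples. Labelled sex, which every group shares, is a term of the model instead. That term and the matched pairs follow the label also for the untreated wild-type library whose sex-linked transcripts go against it. No fit with sex taken from the transcripts was made.

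Precision is limited by 2 libraries a group, of which 2 of the 4 wild-type ones hold kidney or liver transcripts and 1 goes against its sex label. With both left out, Hif1a between genotypes was -0.22 and Egln1 -0.38 on the log2 scale. Egln3 rests on 43 to 412 counts per library.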
